A study of Mus musculus with 6 samples.

Results

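Of regions called accessible in DMSO-treated NMuMG cells, 1090 were narrow at 6 h of BRM014 and near or above DMSO width at 30 h. They were taken from 42310 DMSO regions, of which 21888 overlapped exactly 1 region in each BRM014 list that in turn overlapped no other DMSO region. These 21888 are called uniquely matched regions. From them were kept the regions whose width was at most 0.7 times the DMSO width at 6 h and at least 0.9 times at 30 h. The regions were thus selected on their widths in all 3 lists, and widths, edges and strengths in the same lists are given below as a description, with no test.

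The assay was ATAC-seq, which reads out open chromatin from the places where the transposase Tn5 inserts adapters into DNA. NMuMG is an established line of wild-type mouse mammary gland epithelial cells. Cells received BRM014 for 6 h, BRM014 for 30 h, or the vehicle DMSO, with 2 biological replicates in each of the 3 groups. The authors deposited 1 list of regions per group, made from both replicates, so no spread between replicates could be computed and no test between treatments was made. Only the name of the DMSO list gives its time, 30 h, so the 6 h cells had no vehicle control of their own time. The 3 lists came from separate samples, and a region called restored at 30 h was not followed in the same cells.

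BRM014 inhibits SMARCA4 and SMARCA2, the ATPases that drive the SWI/SNF complexes. These complexes slide and evict nucleosomes and keep enhancers and promoters open to transcription factors. A called region in ATAC-seq usually has a main summit, where insertions are densest, and may have lesser summits on its flanks. NMuMG cells are widely used as a model of epithelial cells that respond to TGFβ.

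The 3 lists differed in depth, which bears on every width. The lowest background in each list, taken as a measure of relative depth, was 63.0% of DMSO at 6 h and 80.7% at 30 h. The 6 h list held 25922 regions and the 30 h list 38422. Pileup, the number of fragments stacked at a summit, was recovered from the deposited values, and the pileup expected in a BRM014 list was the DMSO pileup times the relative depth. The 5th percentile of pileup was 16.0 over the entries of the 6 h list, 18 at 30 h and 20 in DMSO. Depth and treatment cannot be told apart from 1 list per group.

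Of the uniquely matched regions, 15.6% were at most 0.7 times as wide at 6 h as in DMSO, and 66.7% were at least 0.9 times as wide at 30 h. The 1090 regions that met both limits were 4.98% of them (95% Wilson interval 4.70 to 5.28%, which covers counting error only, as do all intervals below). Among the 3410 regions narrowed at 6 h, 32% were restored at 30 h (30.4 to 33.5%), 35.5% were also at most 0.7 times as wide at 30 h, and 32.6% lay between the limits. With the times exchanged, 8.93% of uniquely matched regions were narrowed at 30 h and 53.2% had at least 0.9 times the DMSO width at 6 h. Both held for 263 regions, 1.2% of the uniquely matched (1.07 to 1.35%). With all widths first divided by the median ratio of the uniquely matched regions at that time, there were 763 regions narrowed at 6 h and restored at 30 h and 311 with the opposite order, so the gap between the counts was smaller once the overall width shift between the lists was taken out.

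**Figure D1:**
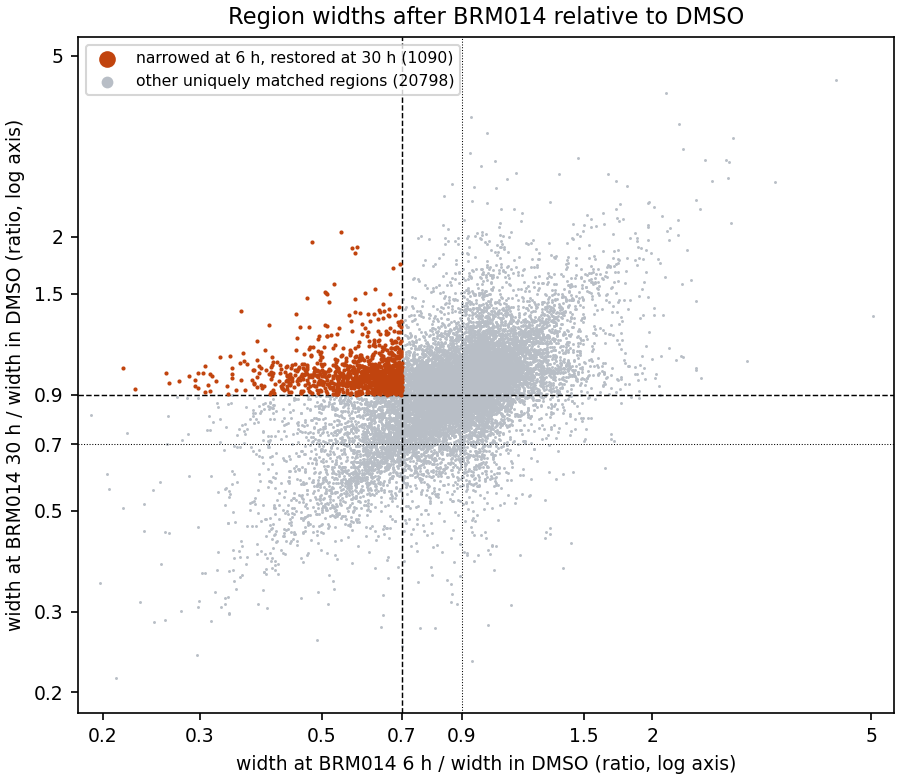
Each point is a uniquely matched region, placed by its width at BRM014 6 h (x axis) and at BRM014 30 h (y axis), both divided by its DMSO width, on log axes. The 1090 regions narrowed at 6 h and restored at 30 h fill the corner left of 0.7 and above 0.9 (dashed lines), and the corner with the opposite order (dotted lines) holds 263.

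The median width of the 1090 regions was 481 bp at 6 h and 828 bp at 30 h, against 830 bp in DMSO. The quartiles were 365 and 620 bp at 6 h, 659 and 1060 bp at 30 h, and 640 and 1063 bp in DMSO. The median ratio to DMSO was 0.617 at 6 h, with a lowest value of 0.218, and 0.987 at 30 h, with a highest value of 2.05. At 6 h 199 regions were at most 0.5 times as wide as in DMSO, and at 30 h 140 were over 1.1 times as wide. The limits cut through a continuous spread. The 3 regions just inside the 6 h limit had ratios of 0.6995, 0.6997 and 0.6999, and the 3 just outside had 0.7001 each. At the 30 h limit the 3 just inside had 0.90, 0.9003 and 0.9003, and the 3 just outside had 0.8997, 0.8999 and 0.8999.

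The outline at 30 h was compared with that of DMSO base by base and edge by edge. The 1090 regions covered 961 kb in DMSO, of which 406 kb were not covered at 6 h, a median of 332 bp per region. At 30 h 363 kb of these 406 kb were covered, 89.3%. In 592 regions (54.3%) both 30 h edges lay within 50 bp of the DMSO edges, which was so for 78.7% of the 6819 regions of unchanged width, those at 0.9 to 1.1 times the DMSO width at both times. The median distance of an edge at 30 h from its DMSO position was 25 bp on the low-coordinate side and 26.0 bp on the high side, against 15.0 bp on each side for regions of unchanged width. Over all uniquely matched regions both edges lay within 50 bp in 42.7%. The limits set much of these shares, since a 30 h width of at least 0.9 times DMSO was required of the 1090 regions with no upper limit, and a width of at most 1.1 times was required of the regions of unchanged width.

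The bases missing at 6 h came mostly from a single flank. In 774 regions (71.0%, 68.2 to 73.6%) at least 80% of the net loss lay on 1 side, in 396 on the low-coordinate side and in 378 on the high side. The other 316 narrowed from both sides. Among the 1210 regions narrowed at both times the share that lost 1 side was lower, 60.4% (57.6 to 63.1%). With each region turned so that the larger loss lies to the right, the position 300 bp from the DMSO main summit on that side was covered in 23.8% of the 1090 regions at 6 h and 91.4% at 30 h, against 92.8% in DMSO. On the other side, the position 300 bp away was covered in 35.0% at 6 h and 52.2% at 30 h, against 48.6% in DMSO. The turning uses the loss that is then shown, and the width limits fix much of the rest, so these shares show the shape of the regions and do not bear on whether the loss was on a single flank.

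**Figure D2:**
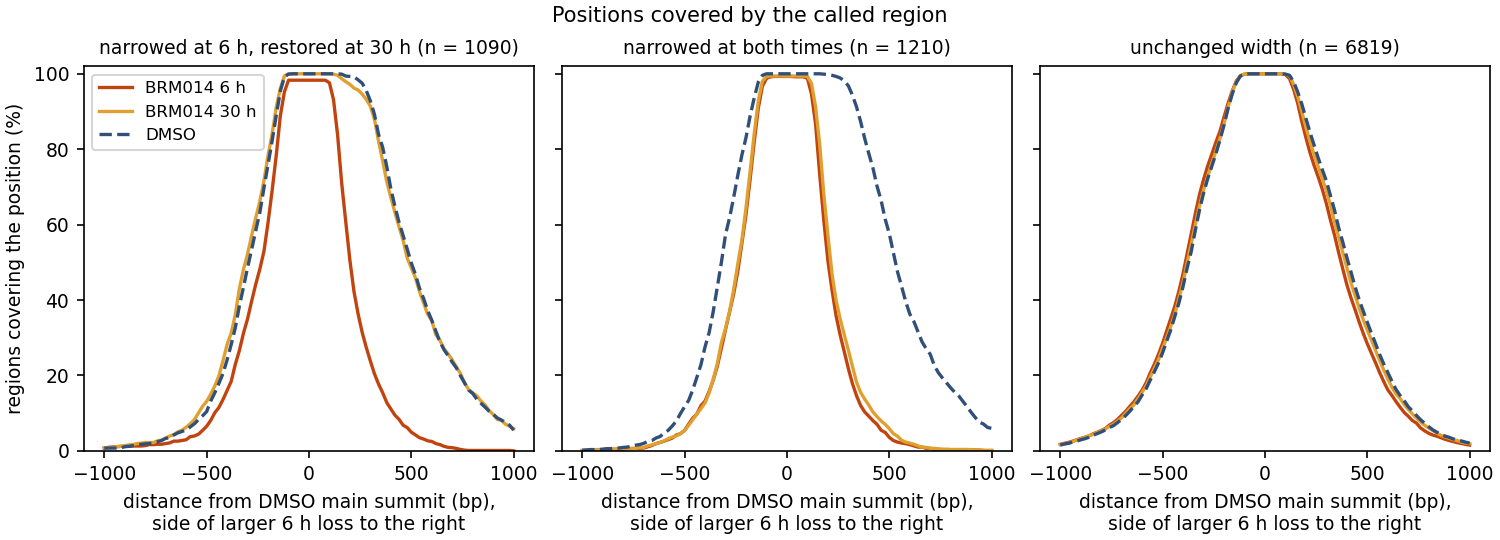
Share of regions (y axis, percent) whose called region covers each distance from the DMSO main summit (x axis, bp), turned so that the side with the larger loss at 6 h lies to the right. In the 1090 regions narrowed at 6 h and restored at 30 h (left) the 30 h line lies near the DMSO line and 23.8% cover the position 300 bp to the right at 6 h, in the 1210 regions narrowed at both times (middle) the 30 h line lies near the 6 h line, and in the 6819 regions of unchanged width (right) the 3 lines lie close together.

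The flank missing at 6 h often carried a summit of its own. The 1090 regions held 1519 summits at 6 h and 2625 at 30 h, against 2505 in DMSO, or 1.39, 2.41 and 2.30 per region. A single summit was called in 744 regions at 6 h and 204 at 30 h, against 249 in DMSO. In regions of unchanged width the mean was 2.30 summits at 6 h and 2.27 at 30 h, against 2.17 in DMSO. Of the 2505 DMSO summits in the 1090 regions, 1013 (40.4%, 38.5 to 42.4%) lay outside the 6 h region, spread over 798 regions (73.2%). These are called shoulder summits below. In regions narrowed at both times 42.9% of DMSO summits lay outside the 6 h region, in 75.6% of the regions. Over all uniquely matched regions these shares were 11.1% and 19.4%. Shoulder summits were thus not particular to the restored regions.

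Shoulder summits were weak next to the main summit. Their median fold enrichment over local background in the authors' DMSO list was 3.42, against 12.7 for the 1492 DMSO summits that lay inside the 6 h region. Their median DMSO pileup was 47.0, a median of 23.9% of that of the main summit of the same region, with quartiles of 16.2 and 38.8%. They lay a median of 440 bp from the main summit, with quartiles of 323 and 590 bp. Scaled to the depth of the 6 h list the median was 29.6, with quartiles of 17.6 and 49.1, beside a 5th percentile of 16.0 over the entries of that list. The lower quartile thus lay near that percentile, and the part of depth in the missing calls was not tested. In regions narrowed at both times the shoulder summits were weaker still in DMSO, with a median pileup of 40.0 and a median of 18.6% of the main summit.

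At 30 h most shoulder summits were called again at their DMSO position. Of the 1013, 815 (80.5%, 77.9 to 82.8%) had a 30 h summit within 100 bp, at a median distance of 15.0 bp. Among the DMSO summits that stayed inside the 6 h region the share with a 30 h summit within 100 bp was 96.0%. In regions narrowed at both times it was 5.02% of 1196 shoulder summits. The width limits largely fix that contrast, since 7.44% of those summits lay inside the 30 h region at all, against 96.3% here. Over all uniquely matched regions 38.9% of 4970 such summits were called again, and 51.6% lay inside the 30 h region. The 80.5% was thus itself largely set by the 30 h width limit. The 815 summits had a median pileup of 39.0 at 30 h, against 53.0 in DMSO. That was a median of 0.964 times the pileup expected at the 30 h depth, with quartiles of 0.704 and 1.21. The ratio covers only summits called again at 30 h. It leaves out the shoulder summits not called, so it does not give the height of all 1013.

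The main summit lay close to its DMSO position in most regions at both times. It lay within 100 bp of the DMSO main summit in 1041 regions at 6 h (95.5%) and in 1055 at 30 h (96.8%), at a median distance of 12 bp at 6 h and 9 bp at 30 h. In regions of unchanged width these shares were 92.2% and 93.4%. Its pileup had a median of 69.0 at 6 h and 128 at 30 h, against 174 in DMSO. Relative to the pileup expected from DMSO the median was 0.778 at 6 h, with quartiles of 0.525 and 1.03, and 1.0 at 30 h, with quartiles of 0.782 and 1.23. At 6 h 302 regions (27.7%) had at least the expected pileup at the main summit although they were narrowed, and at 30 h 544 did (49.9%). Over all uniquely matched regions these shares were 35.0% at 6 h and 49.9% at 30 h, so the share at 30 h was that of the background.

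The 6 h value lay between those of regions narrowed at both times and regions of unchanged width. It was near the 0.783 of the 263 regions with the opposite order, which were not narrowed at 6 h. Over all uniquely matched regions the 6 h median was 0.854. For regions narrowed at both times the median was 0.591 at 6 h and 0.772 at 30 h, and for regions of unchanged width it was 0.934 at 6 h and 1.04 at 30 h. The 1090 regions were weaker in DMSO than both. Their median main summit pileup was 174, against 195 for those narrowed at both times and 259 for those of unchanged width. The 263 regions with the opposite order had 166, so low strength in DMSO was not particular to the restored regions. The ratio was therefore also taken within ranges of the expected 6 h pileup, which is its own denominator. At an expected 6 h pileup of 64 to 128 the medians were 0.708 at 6 h and 1.0 at 30 h in 372 of the 1090 regions, 0.620 and 0.818 in regions narrowed at both times, and 0.918 and 1.08 in regions of unchanged width. At 128 to 256 they were 0.631 and 0.867 in 344 of the 1090 regions, 0.455 and 0.655 in those narrowed at both times, and 0.889 and 1.02 in those of unchanged width. At 32 to 64 the 233 restored regions had medians of 0.937 at 6 h and 1.28 at 30 h. Regions narrowed at both times had 0.901 and 1.05 there, and those of unchanged width 1.09 and 1.29. At 256 to 512 the restored regions had 0.740 and 0.874, those narrowed at both times 0.456 and 0.625, and those of unchanged width 0.945 and 0.981. The 6 h median of the restored regions thus did not fall steadily with expected pileup. Their 30 h median was below the expected height in the ranges from 128 upwards. In the weakest range it was above that height, as it was in regions narrowed at both times and of unchanged width.

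**Figure D3:**
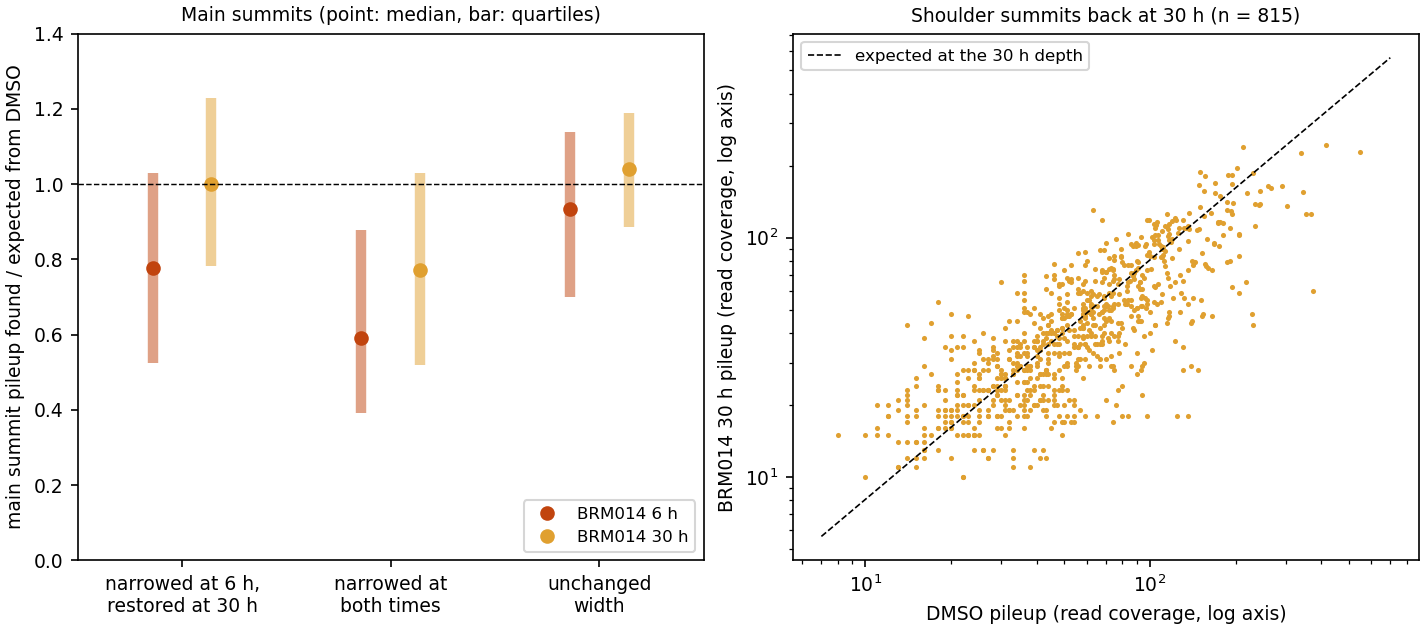
Left: main summit pileup found in the BRM014 lists divided by that expected from DMSO (y axis, ratio), with the median (point) and quartiles (bar), at 6 h and 30 h for 3 groups of regions; the medians of the restored regions are 0.778 and 1.0. Right: the 815 shoulder summits called again at 30 h, with DMSO pileup (x axis) and 30 h pileup (y axis) on log axes, scattered around the dashed line expected at the 30 h depth. Shoulder summits not called again are not shown.

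Narrowing was also compared at equal expected pileup, so that main summits of the same expected height were set side by side in the shallower and the deeper BRM014 list. At an expected pileup of 64 to 128, 17.7% of uniquely matched regions were narrowed at 6 h (16.8 to 18.6%) and 10.7% at 30 h (9.91 to 11.6%). At 256 to 512 the shares were 11.2% (10.2 to 12.3%) and 7.19% (6.53 to 7.90%). Regions narrowed at 6 h and restored at 30 h made up 7.25% of regions at an expected pileup of 32 to 64, 5.69% at 64 to 128, 4.27% at 128 to 256 and 2.99% at 256 to 512. Regions with the opposite order made up 1.90, 1.61, 1.12 and 0.819% in the same ranges. The share thus fell with expected pileup for both orders. These shares count the widths that selected the regions and are a description. Expected pileup was matched only in the list where a region is narrowed: the restored width was read in the deeper 30 h list for the 1090 regions and in the shallower 6 h list for the opposite order. The heights of shoulder summits were not matched, and the part of depth in the widths was not tested.

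**Figure D4:**
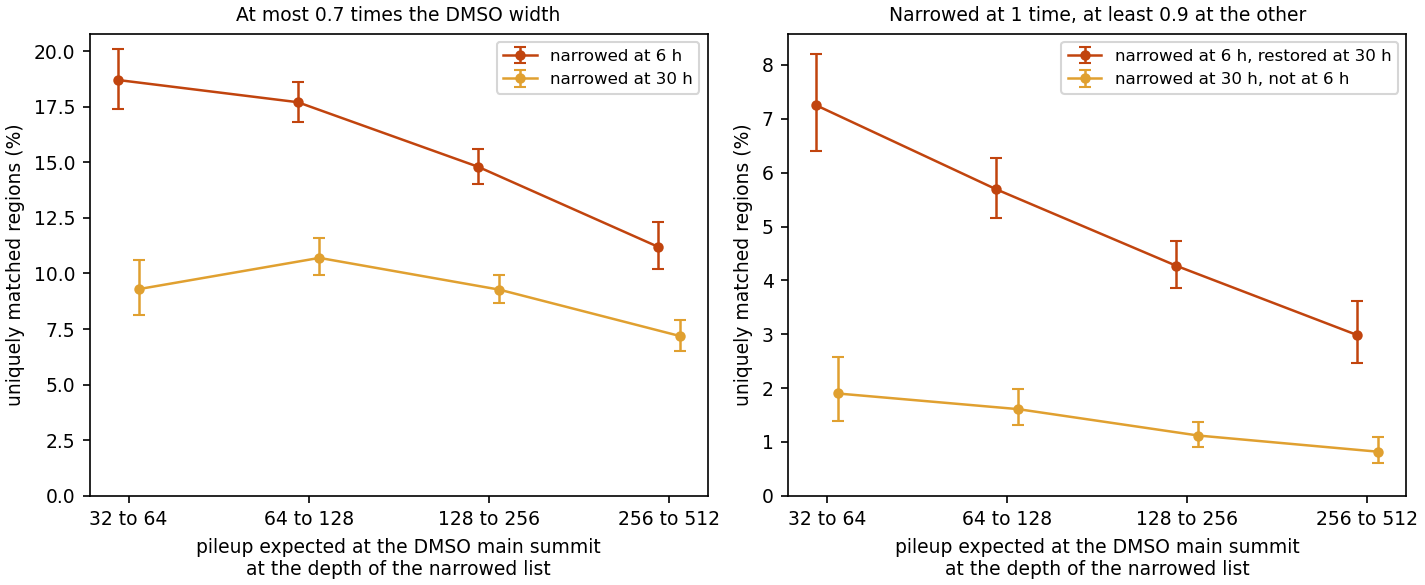
Share of uniquely matched regions (y axis, percent, bars are 95% Wilson intervals) by the pileup expected at the DMSO main summit at the depth of the list in which the region is narrowed (x axis). Left: regions narrowed at 6 h lie above those narrowed at 30 h in all 4 ranges, for example 17.7% and 10.7% at 64 to 128. Right: regions narrowed at 6 h and restored at 30 h go from 7.25% to 2.99%, and regions with the opposite order from 1.90% to 0.819%.

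Regions with several DMSO summits were more often of this kind than those with 1. The share was 3.10% of 8045 uniquely matched regions with a single DMSO summit (2.74 to 3.50%), 6.00% with 2 summits, 5.91% with 3 and 6.67% with 4 or more (5.68 to 7.83%). By DMSO width it was 3.94% in the narrowest quartile, 186 to 611 bp, 5.2% in the second, 4.65% in the third and 6.14% in the widest, 1000 to 2386 bp, and so did not rise steadily. A single DMSO summit was held by 22.8% of the 1090 regions and 21.4% of those narrowed at both times. The share was 29.3% in regions with the opposite order and 36.8% over all uniquely matched regions. Having several summits was thus not particular to the restored regions. The 249 regions with a single DMSO summit had a median width of 370 bp at 6 h and 602 bp at 30 h, against 581 bp in DMSO, and 124 of them narrowed from both sides. The 798 regions with a shoulder summit had medians of 533 bp at 6 h and 914 bp at 30 h, against 922 bp in DMSO, and 631 of them (79.1%) narrowed from 1 side. The other 43 had several DMSO summits, all inside the 6 h region. Loss on 1 side and trimming of both edges were thus both present, and 125 of the 249 regions with a single DMSO summit also narrowed from 1 side. A shoulder summit is by definition in the part missing at 6 h. Its link to loss on 1 side is therefore partly built in.

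The 6 regions with the highest DMSO fold enrichment were chosen for that strength, so it does not show what narrowing leaves. The region chr3:135196862-135197479 (mm9, as are all positions) had a width of 362 bp at 6 h and 557 bp at 30 h, against 618 bp in DMSO, and a fold enrichment of 23.9, 28.2 and 31.4 in these lists. Its DMSO shoulder summit, 285 bp below the main summit with a pileup of 20, was not called at either time. The region chr5:113709183-113710071 spanned 582 bp at 6 h and 809 bp at 30 h, against 889 bp in DMSO, while its main summit had a pileup of 326 at 6 h, 1.18 times that expected. The region chr9:73799900-73800608 spanned 410 bp at 6 h and 713 bp at 30 h, against 709 bp in DMSO. Its shoulder summit lay 360 bp below the main summit in DMSO, was not called at 6 h, and was called 356 bp below it at 30 h with a pileup of 18, against 22 in DMSO.

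The remaining 3 of these 6 differed in how they narrowed. The region chr5:73021109-73021658 lost 185 bp on its low side at 6 h and was 1.17 times as wide as in DMSO at 30 h. The region chr1:137914334-137915104 kept both of its DMSO summits at 6 h and had 515 bp at 6 h and 719 bp at 30 h, against 771 bp in DMSO. The region chr16:6889135-6889838, with a single summit in every list, lost 143 bp on the low side and 140 bp on the high side at 6 h. Its main summit pileup was 82 at 6 h and 134 at 30 h, against 273 in DMSO, or 0.477 and 0.608 times that expected. Its width was thus restored at 30 h while its summit was not at the height expected from DMSO.

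The 6 regions with the lowest ratio of 6 h to DMSO width kept between 0.218 and 0.287 of it and each had a single summit at 6 h. The lowest was chr13:34967042-34968056, with 221 bp at 6 h and 1043 bp at 30 h, against 1015 bp in DMSO. Its 6 h summit lay 474 bp above the DMSO main summit, near the lesser DMSO summit at 487 bp, and at 30 h the main summit was again within 1 bp of its DMSO position. In chr1:78721035-78721989, with 218 bp at 6 h and 885 bp at 30 h against 955 bp in DMSO, the outermost DMSO summit, 605 bp below the main summit, was back at 30 h, and the lesser summits between them were not. In chr10:128328186-128329170, with 257 bp at 6 h and 988 bp at 30 h against 985 bp in DMSO, the flank missing at 6 h held a DMSO summit with a pileup of 104, nearly the 116 of the main summit. At 30 h that flank summit had a pileup of 62 and the main summit 105, so the flank was called again at a lower height relative to the main summit than in DMSO.

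The other 3 regions of this group lost a long flank on a single side. In chr11:115815981-115817307 932 bp were missing on the high side at 6 h, where DMSO had summits with pileups of 175 and 304, and at 30 h summits with pileups of 92 and 135 were called there. In chr7:104905535-104906414 653 bp were missing on the high side, and its width was 242 bp at 6 h and 847 bp at 30 h, against 880 bp in DMSO. In chr7:19911754-19912887 785 bp were missing on the low side, where a DMSO summit with a pileup of 174 was called 743 bp below the main summit at 30 h with a pileup of 115. In each of the 3, a flank summit of the DMSO list was called again at 30 h.

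The 4 regions with the most bases missing at 6 h were long regions with 5 or 6 DMSO summits. The region chr8:129258787-129261153 had 1057 bp at 6 h and 2355 bp at 30 h, against 2367 bp in DMSO, with 3, 6 and 5 summits. Its DMSO main summit, with a pileup of 355, lay in the part missing at 6 h, and at 30 h a summit was called 44 bp from it with a pileup of 125. The region chr4:66488379-66490434 had 747 bp at 6 h and 1895 bp at 30 h, against 2056 bp in DMSO. The region chr19:12575343-12577030 had 497 bp at 6 h and 1637 bp at 30 h, against 1688 bp in DMSO, and its DMSO flank summits 488 and 997 bp below the main summit were both called at 30 h, 490 and 1011 bp below. The region chr13:55572560-55574338 lost 1101 bp on its high side at 6 h, where 3 summits were called at 30 h and 4 in DMSO.

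**Figure D5:**
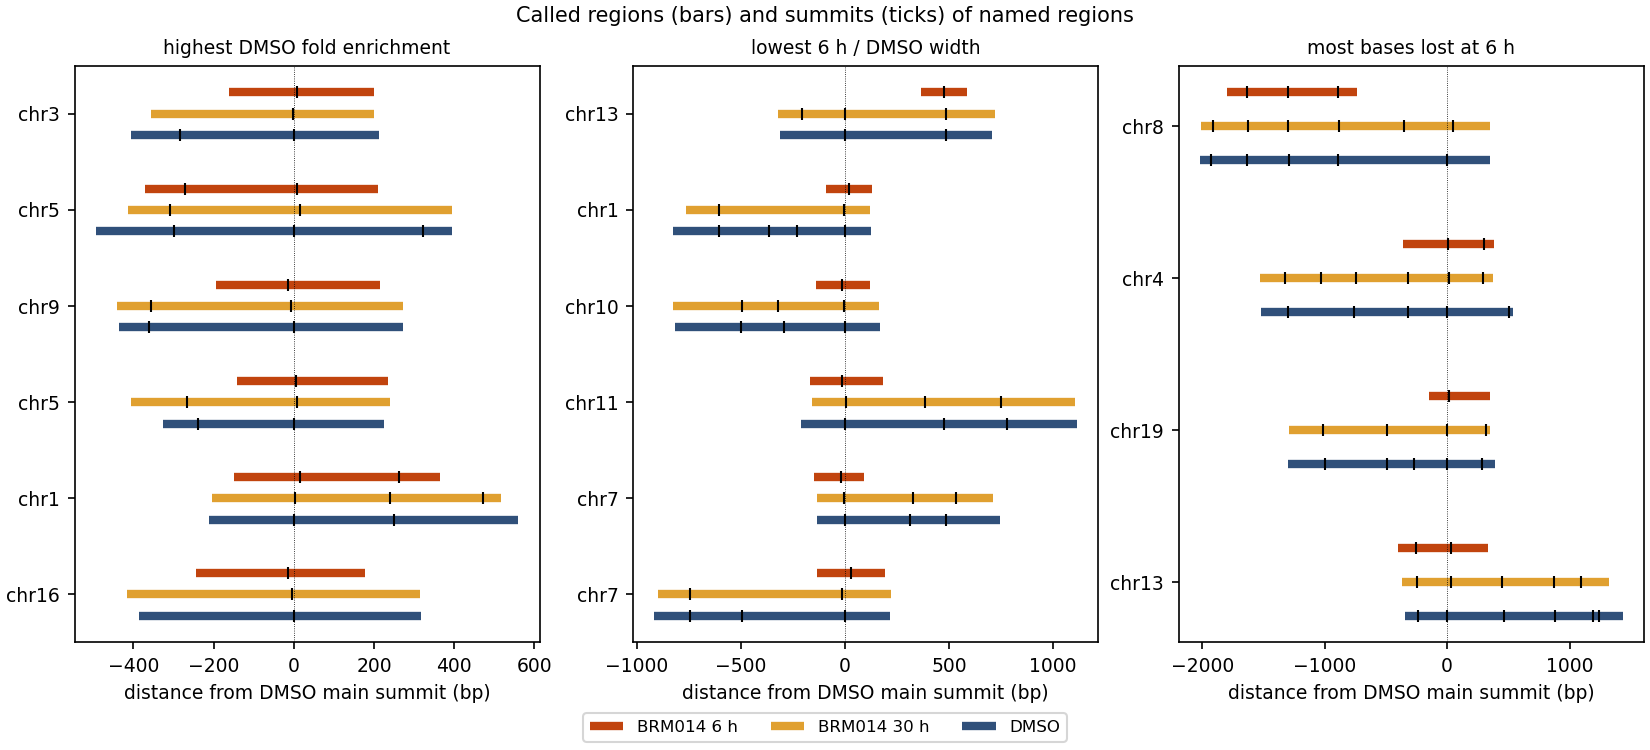
Called regions (bars) and their summits (ticks) in BRM014 6 h, BRM014 30 h and DMSO, by distance from the DMSO main summit (x axis, bp), for the 6 regions with the highest DMSO fold enrichment, the 6 with the lowest ratio of 6 h to DMSO width and the 4 with the most bases missing at 6 h, labelled by chromosome. The 6 h bar is the shortest in each, and in the middle panel it holds a single summit in each region.

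The 4 regions with the most DMSO summits, on chromosomes 6, 3, 15 and 18, had 6 or 7 summits in DMSO, 2 to 5 at 6 h and 5 or 6 at 30 h. In chr18:46684654-46686260 the DMSO summits 715 and 313 bp below the main summit were not called at 6 h, although the 6 h region covered the second position. At 30 h this region had summits 711 and 327 bp below the DMSO main summit. Its main summit pileup was 302 at 6 h and 381 at 30 h, against 530 in DMSO, or 0.905 and 0.891 times that expected, so its height relative to depth was alike at both times while its width was not.

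Some regions were wider at 30 h than in DMSO. The 4 with the highest ratio had 1.89 to 2.05 times the DMSO width at 30 h, 3 summits at 30 h and 1 or 2 in DMSO. The highest, chr17:29467524-29468193, had 364 bp at 6 h and 1371 bp at 30 h, against 670 bp in DMSO, and reached 745 bp beyond its DMSO high edge, with a summit of pileup 31 there. In chr18:70761429-70762009 the main summit at 30 h, with a pileup of 88, lay 437 bp below the DMSO main summit, outside the DMSO region. For these regions the 30 h outline was not the DMSO outline.

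Other DMSO regions near the 1090 regions were missing about as often as those near the other groups. Of the 4279 other DMSO regions within 50 kb of at least 1 of them, among which are those of the 1090 that lie near another, 41.4% had no overlapping region at 6 h (39.9 to 42.8%), 23.2% had none at 30 h (21.9 to 24.5%) and 20.5% lacked one at 6 h only (19.4 to 21.8%). Around regions narrowed at both times these shares were 41.1, 24.3 and 19.3%, around regions of unchanged width 40.5, 22.4 and 20.3%, and around all uniquely matched regions 42.4, 24.4 and 20.3%. The intervals for the 1090 regions overlapped those of each of these groups. Regions of a group that lie near each other count as neighbours here and, by the rule, cannot be missing. With the 83 of the 1090 that lie near another left out, 42.2% of 4196 neighbours were missing at 6 h (40.7 to 43.7%), 23.6% at 30 h (22.4 to 25%) and 20.9% at 6 h only (19.7 to 22.2%). Of all 42310 DMSO regions, which no such rule selects, 43.6% were missing at 6 h (43.1 to 44.1%), 26.1% at 30 h (25.6 to 26.5%) and 19.9% at 6 h only (19.5 to 20.3%). The 4 regions with the most neighbours missing at 6 h only had 4 or 5 such neighbours, out of 7 to 10 DMSO regions within 50 kb. Of these, chr14:73809738-73810406 had 387 bp at 6 h and 607 bp at 30 h, against 669 bp in DMSO, and 4 of its 10 neighbours were missing at 6 h only. Its main summit pileup was 36 at 6 h and 94 at 30 h, against 166 in DMSO.

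The regions were spread over all 20 chromosomes in the lists, 1 to 19 and X. Their share of uniquely matched regions ran from 3.92% on chromosome 15 (2.94 to 5.21%) to 6.99% on chromosome 18 (5.21 to 9.31%), against 4.98% in all. They fell into 772 windows of 1 Mb, 544 of which held a single one, and the median distance to the next was 473 kb. The most in a window were 6 of 40 uniquely matched regions at chr2:32000001-33000000 and 6 of 33 at chr2:30000001-31000000, followed by 5 of 52 at chr10:80000001-81000000, 1 of 4 windows with 5. Within 50 kb of another of the 1090 lay 83 of them (7.61%). Other DMSO regions were common nearby, with a median of 4 within 50 kb, and 80 of the 1090 had none.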

How the data were processed

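ATAC-seq of NMuMG cells was analysed from 3 lists of regions, 1 per group of 2 replicates. Per the submitters' processing notes, the caller was MACS2 2.1.2 and the genome build mm9. Alignment, read filtering, read shifting and caller options are not given in the sources used here. In every entry the authors deposited a score (540 to 1000), a fold enrichment at the summit, a -log10 p and a summit offset, with no scaling between lists. The deposited q-values were not used here. Read totals were not analysed here.

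Entries sharing at least 1 bp were merged into regions, all of which came from entries with the same interval, and regions were matched on at least 1 bp (Python 3.11.15, pandas 2.3.3, scipy 1.17.1). Pileup and background were solved from fold enrichment and -log10 p, assuming the caller's defaults, and matched within 0.001 for 100% of entries. Relative depth was taken from each list's lowest background, on the assumption that both scale together. The main summit is the one with the highest pileup. A region not called is not shown to be closed. Shares have 95% Wilson intervals, which treat regions as independent. On simulated lists 200 of 200 planted regions were found, with 0 called in error.

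The regions and groups compared were chosen with earlier results of these data known. Regions were named by a rule: the 6 with the highest DMSO fold enrichment, the 6 with the lowest 6 h ratio, the 4 with the most bases missing at 6 h, the 4 with the most DMSO summits, the 4 with the highest 30 h ratio, the 4 with the most neighbours missing at 6 h only, the 3 on each side of each limit, and the 3 windows with the most members. The comparison at equal expected pileup was added after seeing the data. Genes, promoters and sequence were not used here, since the annotation in use has another build than mm9 and coordinates were not converted. Alternatives were other width limits, an overlap of at least 50%, a score of 1000, merging within 150 bp, widths over the median ratio, other distances, another depth ratio and strong regions only.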

Additional observations from a re-analysis of the deposited data

How the results depend on the processing

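Over 104 recomputed values, 50 stayed within the interval of the value reported, or within 1.5 times for counts, and 54 moved beyond it. Regions narrowed at 6 h and restored at 30 h outnumbered those with the opposite order under each alternative run. An overlap of at least 50% moved no value beyond it. With a 6 h limit of 0.6 there were 487 regions, 2.22% of the uniquely matched, against 107 of the opposite order, with a median 6 h ratio of 0.525 and a 6 h pileup of 0.736 times that expected. With 0.8 there were 2255 (10.3%) against 627, at a median ratio of 0.704. With a 30 h limit of 0.8 the share was 7.27%, against 451 regions of the opposite order, the median 30 h ratio 0.947, losses on 1 side 62.9%, shoulder summits back 73.1%, and pileup over expected 0.719 at 6 h and 0.957 at 30 h. With 1.0 there were 467 (2.13%) against 101, and these values were 1.05, 74.3%, 85.0%, 0.856 and 1.08. The shifts in widths and counts follow from the limits themselves. With a score of 1000 in every list there were 546 (4.0%) against 135, a median 6 h ratio of 0.629, losses on 1 side of 76.6%, 86.8% of shoulder summits back, a 6 h pileup of 0.905 times that expected, and 50% of neighbours missing at 6 h. Merging within 150 bp gave 5.49% and a 6 h ratio of 0.608. Widths divided by the median ratio gave 763 regions (3.49%) against 311 of the opposite order, a 30 h ratio of 1.02, losses on 1 side of 67.4%, and pileups of 0.736 and 0.980. With regions expected at a 6 h pileup of at least 128, chosen after seeing the data, there were 454 (3.88%) against 103, with ratios of 0.634 and 0.974, 85.4% of shoulder summits back, and pileups of 0.642 and 0.866 times those expected. The depth ratio taken from regions of unchanged width gave 0.833 at 6 h and 0.962 at 30 h. A distance of 50 bp gave 73.6% of shoulder summits back, and 90% of the loss on 1 side gave 54.4%. At a score of 1000 the lists were cut before matching, so a neighbour whose 6 h region scored lower counted as missing. Strong regions were selected on the expected pileup, which is the denominator of their pileup ratio. Where neither the limits nor these choices set the shift, the cause was not tested. Of the 28 named regions, 28 remained under the overlap, merging and looser limits, 19 under the 6 h limit of 0.6 and the scaled widths, 16 at a score of 1000, 13 among strong regions and 12 under the 30 h limit of 1.0.

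No paired analysis was possible because the replicates of a group share a single list. Leaving replicates out in turn was not run, as that list cannot be split.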

Other observations

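In 18 of the 1090 regions narrowed at 6 h and restored at 30 h, the main DMSO summit itself lay in the part missing at 6 h. They were singled out after their values were seen. The 6 h main summit lay 406 to 1296 bp from the DMSO main summit, and in 9 of the 18 the 30 h main summit was within 100 bp of the DMSO one. In chr13:115642463-115643754, with 396 bp at 6 h and 1180 bp at 30 h against 1292 bp in DMSO, the highest pileup was 29 at 6 h and 155 at 30 h, against 346 in DMSO. Its main summit lay 626 bp above the DMSO position at 6 h and 11 bp above it at 30 h. In chr11:53332851-53334452, with 551 bp at 6 h and 1601 bp at 30 h against 1602 bp in DMSO, these shifts were 967 bp and 5 bp. In chr4:34497509-34499152, with 716 bp at 6 h and 1626 bp at 30 h against 1644 bp in DMSO, the main summit lay 1229 bp below the DMSO position at 6 h and 1235 bp below it at 30 h.

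One further window was singled out after its values were seen: at chrX:18000001-19000000, 5 of 9 uniquely matched regions were narrowed at 6 h and restored at 30 h (55.6%), against 4.98% of all uniquely matched regions.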
